A study of Mus musculus with 12 samples.

Results

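The comparison described here sets 6 arrays of cells labelled reprogrammed against 3 arrays of adult mouse mammary epithelial cells, 9 of the 12 arrays in the series. The reprogrammed arrays were taken by their label alone: replicates 1, 3 and 4 of reprogrammed lung and replicates 1, 2 and 3 of reprogrammed mammary. The adult mammary arrays are replicates 1, 2 and 4. The study concerns how stroma redirects adult cells during organ regeneration, and the remaining 3 arrays are of adult lung epithelial cells. Adult donor cells came from female mice of 10 weeks. Lungs and mammary glands were dissociated with trypsin and collagenase and epithelia were enriched by spinning repeatedly at low speed, and the labels name no cell sort. The cells were suspended in diluted Matrigel, a basement membrane gel, for transplantation. The labels give no strain, genotype or treatment that differs between the groups. Whether the organ in the name of a reprogrammed sample gave the donor cells or is what grew from them is not stated. Nor is it stated that arrays of 1 group are of separate animals, so p-values measure the spread between arrays, which may be technical.

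The mammary gland is a branched epithelium of inner luminal cells, which sense hormones or make milk, and outer basal myoepithelial cells, set in a fat pad with vessels, fibroblasts, immune cells and, in the inguinal gland, a lymph node. Transplanted mammary cells can rebuild this tree in a cleared fat pad, and the stroma is known to influence the fate of foreign epithelium placed there. A regrown gland may therefore match or depart from an intact one in its luminal and basal layers, in its stroma and in its leukocytes. Each of these was examined through genes chosen for it.

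All levels below are log2 values relative to the 75th percentile of the array, so that 0 is the level of the probe at that percentile, and differences are reprogrammed minus adult mammary unless another pair is named. On 10 arrays the share of probes well above background was 71.7% to 77.5%, but it was 89.1% for replicate 4 of adult mammary and 91.1% for replicate 1 of reprogrammed lung. On these 2 arrays the signal spanned 7.11 and 6.10 log2 units from its 10th to its 90th percentile, against 8.46 to 9.13 on the others. Reprogrammed lung replicate 1 also stood apart in content. Its median over 20 pan-epithelial genes was -0.03, against 2.20 to 2.74 on the other 8 arrays compared. Its median over 14 B cell genes was 3.09, the highest of the 9.

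Of the 6 reprogrammed arrays, 5 correlated more closely with every adult mammary array than with any adult lung array. Across features, correlations with single adult mammary arrays ran from 0.836 to 0.972 (median 0.951), and from 0.941 to 0.972 without the 2 arrays of narrow signal range, and adult mammary arrays correlated with each other at 0.945 to 0.971. Correlations with adult lung arrays ran from 0.826 to 0.872. Reprogrammed lung replicate 1 set the low end of both ranges, at 0.836 to 0.906 with adult mammary and 0.826 to 0.837 with adult lung, which overlap. Features are not independent replicates, so these values are descriptions. Krt8 lay above adult lung on each reprogrammed array, though only narrowly on reprogrammed lung replicate 1. The lung epithelial markers Sftpc and Scgb1a1 lay far below adult lung on the reprogrammed arrays. Krt8, a keratin of luminal and other simple epithelia, lay at 6.61, 6.38 and 6.30 in adult mammary. It lay at 3.56, 5.54 and 6.20 in reprogrammed lung and at 6.45, 6.38 and 6.47 in reprogrammed mammary. Adult lung was at 2.99 to 3.50. Sftpc, the surfactant protein that defines alveolar type II cells, lay between -3.17 and -1.05 on the reprogrammed arrays and at 7.20 and 7.34 on the 2 adult lung arrays with a value. Scgb1a1, the secretoglobin of airway club cells, lay between -2.37 and 0.71 on the reprogrammed arrays and between 7.93 and 8.50 in adult lung. Scgb3a1, another airway secretoglobin, read 3.70 on reprogrammed lung replicate 4, against 4.33, 4.51 and 5.75 in adult lung. On the other reprogrammed arrays Scgb3a1 lay between -0.84 and 0.51, and in adult mammary at -1.29, -1.05 and -1.03.

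Of 24498 features tested, 5 rose in the reprogrammed arrays (0.0204%) and 0 fell (0.0%), by limma with Benjamini-Hochberg adjustment at 0.05. At an unadjusted p under 0.05, 1668 features lay higher (6.81%) and 1126 lower (4.6%). The same 6 arrays against adult lung gave 4342 features higher (17.7%) and 3089 lower (12.6%). Those 2 comparisons share the reprogrammed arrays. The median difference from adult mammary over all features was 0.05, with quartiles of -0.18 and 0.31, and its median standard error was 0.25. In total 810 features lay at least 2-fold higher and 265 at least 2-fold lower, which is 4.39% of features against 22.5% in the comparison with adult lung. The 6 reprogrammed arrays all lay above the 3 adult mammary arrays for 707 features (2.89%) and all below for 577 (2.36%).

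**Figure D1:**
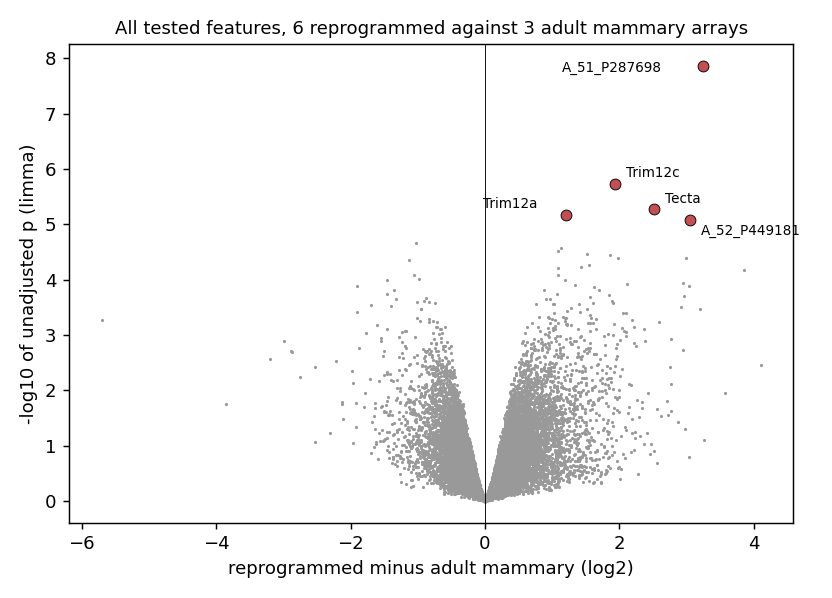
Each point is 1 of 24498 tested features, with its difference (reprogrammed minus adult mammary, log2) on the horizontal axis and minus log10 of its unadjusted limma p on the vertical axis. The 5 red points, all to the right of 0, are the features past an adjusted p of 0.05. The grey point farthest to the left, at -5.70, is Calca.

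How many features passed depended on single arrays and on the processing. With slide as a fixed block, and with normexp background correction, 0 features passed in either direction by limma, and 1725 and 1398 had an unadjusted p under 0.05. Leaving out reprogrammed lung replicate 4 raised the count to 104 (93 higher and 11 lower), which included all 5. Leaving out reprogrammed lung replicate 1 gave 24 and reprogrammed lung replicate 3 gave 16, again with all 5 among them. Without adult mammary replicate 4 there were 10, with 4 of the 5. Without adult mammary replicate 1 there were 2, without adult mammary replicate 2 there was 1, and without reprogrammed mammary replicates 1, 2 or 3 there were 1, 1 and 2. In each of these fits 1 of the 5 remained. Leaving out both arrays of narrow signal range gave 41 (27 higher and 14 lower), with 4 of the 5.

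**Figure D2:**
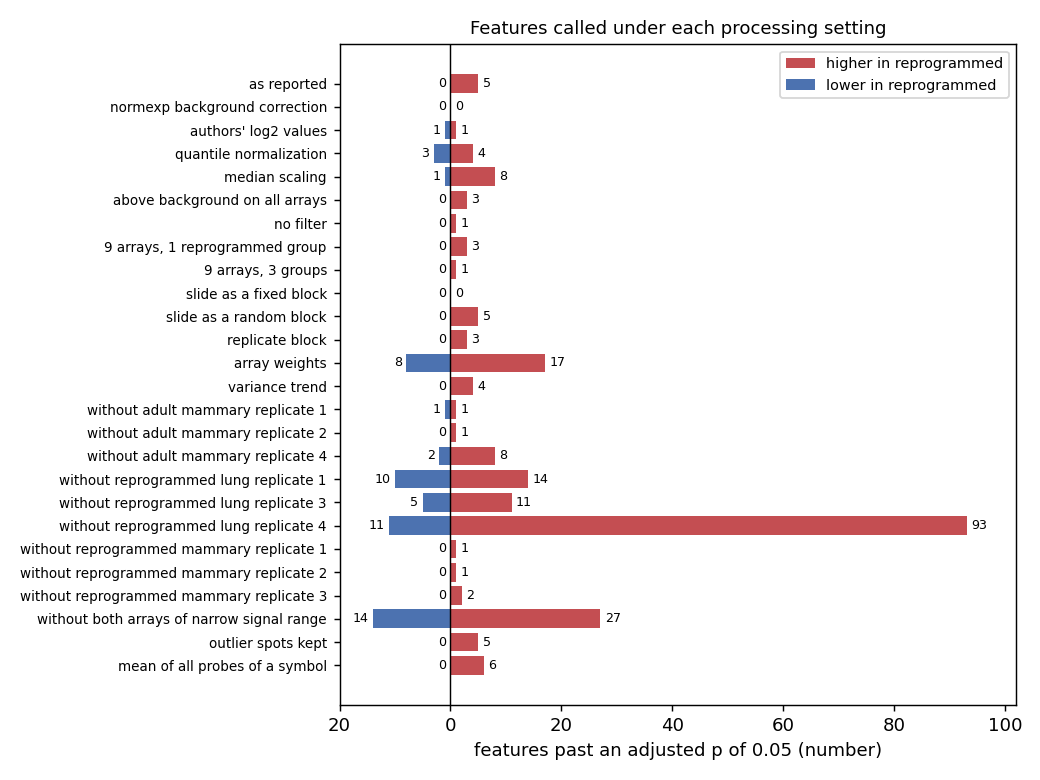
Bars give the number of features past an adjusted p of 0.05 under each processing setting, higher in the reprogrammed arrays to the right of 0 and lower to the left. The counts run from 0 to 93 higher and from 0 to 14 lower, against 5 and 0 as reported.

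The named genes past the threshold included Trim12c and Trim12a, a pair of genes on chromosome 7 that encode tripartite motif proteins. They are mouse relatives of TRIM5, which in primates restricts retroviruses. Their start sites lie on the minus strand of the RefSeq assembly GRCm38.p6. The stretch around each is shown because both genes rose together and because their promoter windows are nearly identical. Each run is 280 bases, 250 before the annotated start and 30 after it, and capitals mark a match, on either strand, to GAAA, any 2 bases and GAAA (on the printed strand TTTC, any 2 bases and TTTC), a core of interferon-stimulated response elements.
Trim12a, chr7:104315466-104315745, minus strand: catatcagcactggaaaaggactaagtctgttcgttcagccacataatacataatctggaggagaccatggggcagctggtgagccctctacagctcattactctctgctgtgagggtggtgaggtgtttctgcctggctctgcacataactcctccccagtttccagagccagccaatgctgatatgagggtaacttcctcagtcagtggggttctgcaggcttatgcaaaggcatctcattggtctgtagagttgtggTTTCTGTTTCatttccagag
Trim12c, chr7:104353320-104353599, minus strand: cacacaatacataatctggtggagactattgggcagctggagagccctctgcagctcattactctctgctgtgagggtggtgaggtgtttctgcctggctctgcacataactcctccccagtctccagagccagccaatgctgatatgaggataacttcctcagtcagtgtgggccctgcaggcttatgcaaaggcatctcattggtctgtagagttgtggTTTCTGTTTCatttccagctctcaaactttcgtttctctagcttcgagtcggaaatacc
Over their 300-base promoter windows the pair aligned in 261 columns, of which 247 were identical (94.6%). Each printed stretch held 1 match, at bases 11 to 20 after the start in Trim12a and at -29 to -20 in Trim12c. Of 32851 promoter windows of the same length in the table, 1077 (3.28%) held a match. The match is a description of the letters, not of a bound site.

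Trim12c lay at -4.24, -3.98 and -3.98 in adult mammary. It lay at -2.29, -2.25 and -1.62 in reprogrammed lung and at -2.47, -2.04 and -2.12 in reprogrammed mammary, so that no reprogrammed array reached down to the adult mammary range. Trim12c rose by 1.93 ± 0.20 (SE; 3.82-fold, adjusted p = 0.0233). Adult lung lay at -2.98, -2.38 and -2.63, above adult mammary by 1.40 (adjusted p = 0.00161), and the reprogrammed arrays differed from adult lung by 0.53 (adjusted p = 0.0735). Trim12a lay at -2.23, -2.47 and -1.90 in adult mammary and between -1.11 and -0.83 on the 6 reprogrammed arrays, with adult lung at -1.07 to -1.02. It rose by 1.20 ± 0.15 (2.30-fold, adjusted p = 0.0415). Against adult lung its difference was 0.06 (adjusted p = 0.818). Adult mammary was thus the low group for both genes. No probe or transcript sequences of the 2 genes were compared. Signal from one gene may reach the probe of the other, and which of them the probes report is uncertain. Another Trim12a probe was too dim to be tested. It overlapped between the groups, at -7.09 to -3.53 in adult mammary and -6.45 to -2.57 on the reprogrammed arrays.

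Both were higher on each of the 3 slides that carried an adult mammary and a reprogrammed array, by 1.73, 1.77 and 1.85 for Trim12c and by 1.39, 1.12 and 0.82 for Trim12a. With slide as a fixed block the differences were 1.77 and 1.21 (adjusted p = 0.559 and 0.626). Trim12c passed under 14 of 25 alternative settings (adjusted p 0.00821 to 0.694) and Trim12a under 12 of 25 (0.0158 to 0.626). With the authors' log2 values they gave 1.19 and 0.92 (adjusted p = 0.144 and 0.0512). Neither passed without adult mammary replicate 1 or 2 or without any 1 of the reprogrammed mammary arrays (adjusted p 0.0538 to 0.203). Of the 7 tested genes of the Trim12 and Trim30 cluster list, these 2 passed, and the median of the 7 was 0.44 against 0.05 over all features. Trim30d lay 0.69 ± 0.20 higher (adjusted p = 0.281) and the other 4 (Trim30a, Trim34a, Trim6 and Trim21) lay 0.40 to 0.44 higher without passing. Earlier results of these data were known when the list was written.

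Tecta, on chromosome 9, encodes alpha-tectorin, a protein of the tectorial membrane of the inner ear. It was well above background on all 6 reprogrammed arrays and on 0 of 3 adult mammary and 0 of 3 adult lung arrays. Tecta thus entered the test only through the reprogrammed groups, where it was high, and its adjusted p is conditional on that. The reprogrammed arrays lay at -3.57, -4.03 and -4.45 (lung) and at -4.53, -4.25 and -4.07 (mammary). Adult mammary read -6.49, -7.20 and -6.29, and adult lung -6.82, -5.74 and -6.50. Set against the mean over the 3 adult mammary arrays of the dimmest level above background on each, Tecta was at least 2.04-fold higher in the reprogrammed cells (adjusted p = 0.0415, fitted difference 2.51 ± 0.29). Against adult lung it rose by 2.20 (adjusted p = 0.000333). Its fitted difference shrank to 0.55 with normexp background correction and to 0.66 in the authors' log2 values, and it passed under 11 of 24 alternatives (adjusted p 0.0124 to 0.923). With no filter 1 feature passed, and it was not Tecta.

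The other 2 features past the threshold carry no gene symbol in the tables used here. Probe A_51_P287698 had the smallest p of all features. It lay at -3.52, -3.91 and -4.12 in adult mammary, at -0.29, -0.91 and -0.07 in reprogrammed lung and at -0.70, -0.81 and -0.86 in reprogrammed mammary. Adult lung, at -4.62 to -4.31, was as low as adult mammary. The probe rose by 3.25 ± 0.21 against adult mammary (9.49-fold, adjusted p = 0.000336) and by 3.80 against adult lung (adjusted p = 1.8e-06). It passed under 23 of 25 alternative settings. The 2 exceptions were the fixed slide block (difference 3.18, adjusted p = 0.247) and normexp background correction (2.08, adjusted p = 0.325). Probe A_52_P449181 was well above background on 5 of 6 reprogrammed arrays and on 0 adult mammary and 0 adult lung arrays. Like Tecta, this probe entered the test only through a reprogrammed group. It read -7.64 to -7.08 in adult mammary and -5.20 to -3.15 on the reprogrammed arrays, at least 1.91-fold higher (adjusted p = 0.0415), and it passed under 8 of 24 alternatives.

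**Figure D3:**
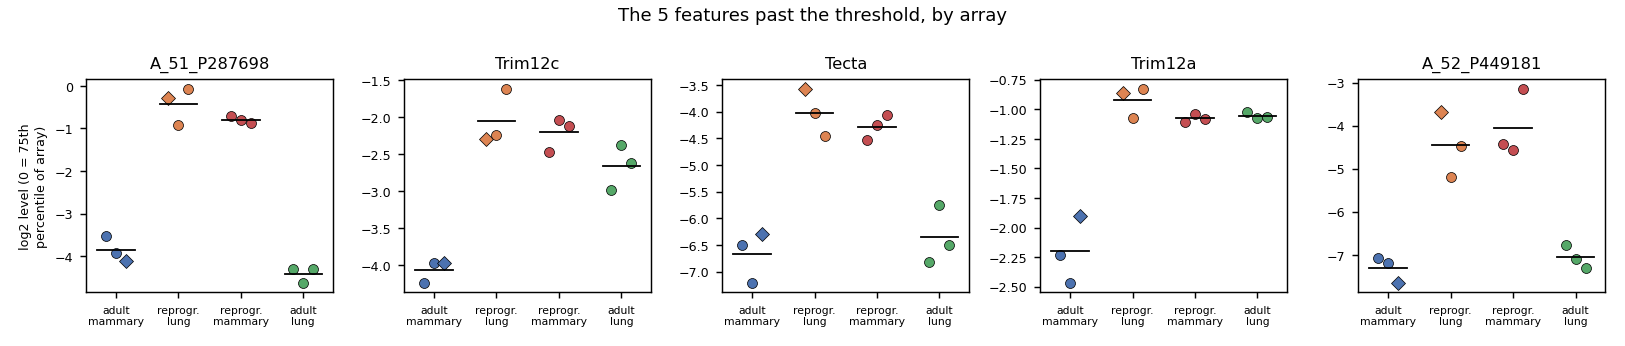
Each panel is 1 of the 5 features past the threshold, with the log2 level of each array (0 is the array's 75th percentile) on the vertical axis and the 4 groups on the horizontal axis. Points are arrays, diamonds mark the 2 arrays of narrow signal range and lines are group means. All 6 reprogrammed arrays lie above all 3 adult mammary arrays in each panel, and adult lung lies beside the reprogrammed arrays for Trim12a (at -1.07 to -1.02) but beside adult mammary for Tecta and both probes.

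Below the threshold, the genes with a symbol whose 6 reprogrammed arrays all lay above adult mammary were ordered by p, and the 12 that follow the 3 called genes are given as values only. Tacr1, the receptor for substance P, lay at -2.89, -2.81 and -2.70 in adult mammary and between -2.08 and -1.37 on the reprogrammed arrays (difference 1.13 ± 0.16, adjusted p = 0.0827). A second Tacr1 probe differed by 1.85. Without reprogrammed lung replicate 4 the difference for Tacr1 was 1.20 and passed (adjusted p = 0.0139). Tacr1 passed under 7 of 25 alternative settings. Ankrd12, an ankyrin repeat protein of the nucleus, lay at a mean of 1.37 ± 0.27 (SD, n = 3) in adult mammary and at 1.96 to 3.03 in the reprogrammed arrays (1.09 ± 0.16, adjusted p = 0.0827). Its 3 other probes differed by -0.01, -0.01 and -0.22, so the probes of Ankrd12 disagree.

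Fbp1, the fructose bisphosphatase of gluconeogenesis, differed by 1.55 ± 0.24 (adjusted p = 0.0926) and Lrg1, a secreted acute phase and vascular glycoprotein, by 1.56 ± 0.27 over the 5 reprogrammed arrays with a value (adjusted p = 0.134). Lrg1 was at 5.13, 4.26 and 4.07 in adult mammary and at 5.72 to 6.47 in the reprogrammed arrays. Mctp1, a membrane protein with C2 domains, differed by 1.43 ± 0.22 and Pcdhga4, a gamma protocadherin of cell adhesion, by 1.08 ± 0.17 (adjusted p = 0.0926 for both). For these 2 genes, as for the Trim12 pair, adult lung lay near the reprogrammed level, with reprogrammed minus adult lung differences of -0.43 and 0.20 (adjusted p = 0.17 and 0.429). Olfml2a, a secreted olfactomedin-like protein, lay 1.08 ± 0.17 higher and Mmp11, a stromal metalloproteinase, 0.92 ± 0.17 higher (adjusted p = 0.108 and 0.134). The remaining 4 genes were highest in reprogrammed mammary by their group means. Tmem86a, a lysoplasmalogenase, lay at -2.16 to -1.05 in reprogrammed lung and at -0.66 to 0.82 in reprogrammed mammary, against -3.04 to -2.32 in adult mammary. Ptpn5, a tyrosine phosphatase, differed by 1.33, Pcp4, a calmodulin-binding peptide, by 1.89 and Commd5 by 0.97.

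In the other direction no gene passed, and the 15 whose reprogrammed arrays all lay below adult mammary with the smallest p are values only. Rpl21, a protein of the large ribosomal subunit, lay at -1.48, -1.64 and -1.52 in adult mammary and between -3.18 and -2.54 on the reprogrammed arrays, with adult lung at -2.83 to -2.44 (difference -1.13 ± 0.17, adjusted p = 0.084). Rpl21 has many near-identical pseudogenes, so its probe may report more than 1 gene. Fxyd2, a regulatory subunit of the sodium pump, was at 1.03, 0.43 and 1.03 in adult mammary and between -1.99 and -0.65 in the reprogrammed arrays (-1.91 ± 0.32, adjusted p = 0.117). Bex4 lay at -2.49 to -2.01 on the reprogrammed arrays and at -1.63, -0.05 and -0.02 in adult mammary (-1.69 ± 0.32, adjusted p = 0.134). Bex4 passed under 1 of 25 alternative settings, the fit without adult mammary replicate 1 (-2.22, adjusted p = 0.00196). Dcstamp, a membrane protein needed for osteoclast fusion, differed by -1.90 ± 0.37 and Crabp1, a retinoic acid binding protein, by -1.77 ± 0.39.

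Lgr5, the R-spondin receptor known as a stem cell marker in several epithelia, lay at -1.21, -1.26 and -0.78 in adult mammary. It read -2.43, -3.58 and -2.72 in reprogrammed lung and -2.54, -3.20 and -1.65 in reprogrammed mammary (-1.60 ± 0.33, adjusted p = 0.165). Adult lung was lower still, at -4.48 to -4.33. The guanine nucleotide exchange factor Arhgef39 differed by -1.45 and the scaffold protein Iqgap2 by -0.83, and the other tested probes of these 2 genes differed by -1.64, -1.11 and -1.07. The remaining 7 genes, Usp43, Il12rb2, Zbtb39, Zswim5, Heatr1, Mpp5 and Larp1b, differed by -1.18 to -0.60.

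Gene lists for 20 cell types and 23 cell programmes were then examined. They hold 657 distinct tested genes, and 2 of these passed, Trim12a and Trim12c, so that 42 of the 43 lists had no member past the threshold. Over all features the share that passed was 0.0204%, and both list genes belong to a list written with earlier results known. Of the 657, 22 did not overlap on the higher side and 11 on the lower side, against 2.89% and 2.36% of all features. List medians ran from -0.80 (cell cycle) to 1.02 (B cell), with a middle value of 0.12. In bulk samples, fewer cells of a type and less RNA per cell cannot be told apart.

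**Figure D4:**
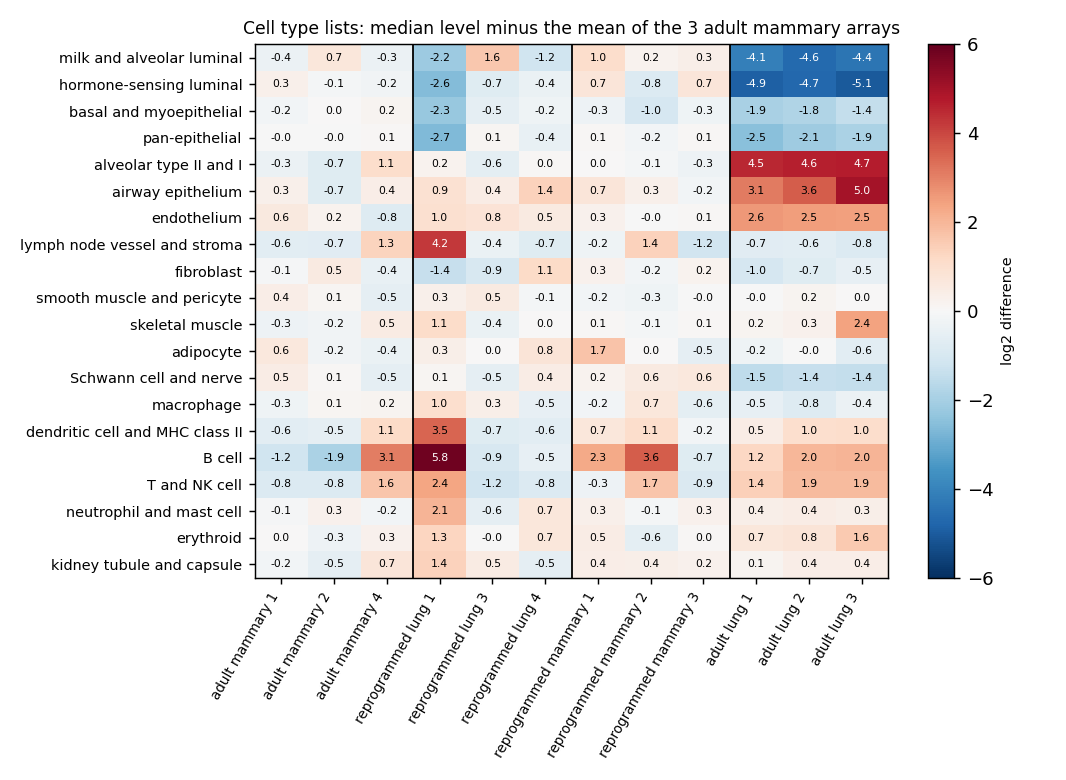
Rows are the 20 cell type lists and columns the 12 arrays. Colour and number give the median log2 level of the list on that array minus the mean of the 3 adult mammary arrays. The mammary lists at the top are between -1.18 and 1.63 on the reprogrammed arrays other than reprogrammed lung replicate 1, and the B cell row is highest on adult mammary replicate 4, reprogrammed lung replicate 1 and reprogrammed mammary replicates 1 and 2 among the arrays compared.

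Among luminal genes, the 17 of the milk and alveolar list had a median of 0.17. Of these, 1 did not overlap on the higher side and 0 on the lower, against 2.89% and 2.36% of all features. Lalba, the alpha-lactalbumin of lactose synthesis, lay at 0.25, -1.51 and -0.16 in adult mammary and at 4.29, 2.80 and 3.31 in reprogrammed mammary. In reprogrammed lung it read -0.91, 3.12 and 1.06, so the ranges overlap through reprogrammed lung replicate 1 (2.75 ± 0.74, adjusted p = 0.254). On the slides that carried both kinds of array it was higher by 4.63, 4.04 and 3.47. Mfge8, the milk fat globule protein that also marks dying cells for uptake, lay at 6.26, 5.43 and 5.53 in adult mammary and between 6.30 and 6.74 on the 5 reprogrammed arrays with a value (0.76 ± 0.21, adjusted p = 0.264). It was singled out after its values were seen. Csn2, the beta-casein, ranged from -3.09 to 2.59 in adult mammary and from -4.89 to 4.26 on the reprogrammed arrays, a spread wider than the difference between the groups. Its sign turned with array weights (0.45) and without adult mammary replicate 2 (0.27), from -1.10.

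The 16 hormone-sensing luminal genes had a median that rounds to 0.00 and included the widest negative difference of all features. Calca, which encodes calcitonin and the neuropeptide CGRP, lay at 2.09, 2.32 and 0.94 in adult mammary. It read -3.16, 0.95 and -5.67 in reprogrammed lung and -3.76, -5.30 and -6.56 in reprogrammed mammary. Only reprogrammed lung replicate 3 reached the adult mammary range, and adult lung read -6.56 to -6.24 (difference -5.70 ± 1.16, adjusted p = 0.163). A second Calca probe differed by -2.06. Calca passed under 1 of 24 alternative settings, the fit without reprogrammed lung replicate 3 (-6.60, adjusted p = 0.0181). Fgg, a fibrinogen chain, differed by -1.91 ± 0.68. Areg, the amphiregulin ligand of the EGF receptor that acts downstream of estrogen in ducts, differed by 1.55 ± 0.36 (adjusted p = 0.206), with 5.67 and 5.76 on the 2 reprogrammed mammary arrays with a value, 3.80 to 4.47 in reprogrammed lung and 2.31 to 4.10 in adult mammary.

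Basal genes lay lower by their median, without passing. The 17 tested genes of the basal and myoepithelial list had a median of -0.29. It was -0.34 for reprogrammed lung minus adult mammary and -0.07 for reprogrammed mammary minus adult mammary. Of the 17, 4 lay wholly lower and 0 wholly higher, against 2.36% and 2.89% of all features. Krt14, a keratin of basal cells, lay at 4.51, 4.66 and 4.29 in adult mammary, at 1.22, 3.52 and 2.56 in reprogrammed lung and at 3.63, 2.28 and 3.95 in reprogrammed mammary (-1.63 ± 0.58, adjusted p = 0.349). The others were Wnt10a, a Wnt ligand (-1.62 ± 0.85, adjusted p = 0.496), Lgr5 as above and Krt17, a keratin of basal and wounded epithelium (-1.45 ± 0.40, adjusted p = 0.259), which was chosen after its values were seen. The 20 pan-epithelial genes had a median of -0.54, with reprogrammed lung minus adult mammary at -1.01 and reprogrammed mammary minus adult mammary at 0.01. Epcam, the epithelial adhesion molecule, lay at 1.58 on reprogrammed lung replicate 1 and between 4.33 and 4.91 on the other 5 reprogrammed arrays, against 4.58 to 4.76 in adult mammary. The basal list medians of reprogrammed lung were 0.53, 2.28 and 2.56, all below the 2.63 to 2.96 of adult mammary, and those of reprogrammed mammary were 2.49, 1.78 and 2.54. The pan-epithelial medians of reprogrammed lung were -0.03, 2.74 and 2.20, so that replicate 3 lay above adult mammary (2.60 to 2.70) and the other 2 below. B cell and lymph node levels were also high on reprogrammed lung replicate 1, and their part in these medians was not tested.

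Lists of adult lung cells did not separate the 2 sides. The medians were 0.06 for 15 alveolar genes and 0.44 for 12 airway genes, against -5.27 and -4.20 for the same lists in the comparison with adult lung. For the 15 genes of embryonic lung epithelium the median was 0.34, and 3 did not overlap on the higher side, against 2.89% of all features. Id2, an inhibitor of basic helix-loop-helix factors found in embryonic tips and many other cells, lay at 0.57 to 1.38 in adult mammary and at 1.86 to 2.82 on the reprogrammed arrays (1.21 ± 0.24, adjusted p = 0.163). Foxp2 lay 1.07 ± 0.34 higher (adjusted p = 0.311). The 12 genes of the embryonic mammary bud had a median of 0.14 and the 9 pluripotency genes 0.22. None of the latter lay wholly higher or wholly lower, against 2.89% and 2.36% of all features.

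Leukocyte genes varied among arrays of the same label. The 14 B cell genes had medians of -3.90, -4.62 and 0.34 in adult mammary, 3.09, -3.67 and -3.22 in reprogrammed lung and -0.45, 0.90 and -3.46 in reprogrammed mammary. Adult mammary replicate 4, reprogrammed lung replicate 1 and reprogrammed mammary replicates 1 and 2 were high and the other 5 arrays low. The summed level of the list ran from 1.36 to 4.17 in adult mammary and from 1.40 to 7.52 on the reprogrammed arrays, and the groups overlapped for all 14 genes. Cd79a, a signalling chain of the B cell receptor, lay at 3.44 on reprogrammed lung replicate 1 and at -3.01 on reprogrammed mammary replicate 3. Without the former its difference changed from 0.89 to -0.04. The 14 genes of lymph node vessels and stroma and the 12 of dendritic cells and MHC class II were highest on the same reprogrammed lung array, with medians of 2.94 and 3.10. The part of these cells in other differences was not tested.

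Macrophage genes gave a median of 0.08 over 16, with a few members far from it. Spp1, the secreted phosphoprotein osteopontin made by macrophages and by mammary epithelium, lay at 0.04, -0.48 and 1.30 in adult mammary, at 0.80, 2.50 and 2.76 in reprogrammed lung and at 5.10, 3.87 and 4.36 in reprogrammed mammary. Only reprogrammed lung replicate 1 fell within the adult mammary range (2.94 ± 0.49, adjusted p = 0.117), and without it the difference was 3.25 and passed (adjusted p = 0.026). Spp1 passed under 3 of 25 alternative settings. Trem2, a lipid receptor of macrophages, lay at -3.05, -2.83 and -2.04 in adult mammary and between -1.55 and -0.46 on the reprogrammed arrays (1.58 ± 0.32, adjusted p = 0.163). A second Trem2 probe differed by only 0.63. Its groups overlapped, at -3.01 to -1.99 in adult mammary and -2.24 to -1.45 on the reprogrammed arrays. Gpnmb, a glycoprotein of lipid-laden macrophages, differed by 1.88 ± 0.56. Trem2 and Gpnmb were chosen after their values were seen. Cd163, a scavenger receptor of resident macrophages, differed the other way, by -2.12 ± 0.86 (adjusted p = 0.396). Itgax, the integrin CD11c, lay at -4.04, -4.85 and -3.38 in adult mammary and between -3.10 and -0.48 on the reprogrammed arrays (2.38 ± 0.55, adjusted p = 0.196). S100a9, a neutrophil calcium-binding protein, lay 3.58 ± 1.16 higher, with 3.43 on reprogrammed lung replicate 1 and -3.06 to -1.65 on the others.

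Stromal and vascular lists lay close to adult mammary: the medians were 0.22 for endothelium, 0.07 for fibroblasts, 0.12 for smooth muscle and pericytes, 0.10 for adipocytes and 0.14 for Schwann cells and nerve. Of these 5 lists, none had a member whose groups did not overlap, against 2.89% of all features wholly higher and 2.36% wholly lower. Among the 17 endothelial genes, 4 lay higher and 0 lower at an unadjusted limma p under 0.05, against 6.81% and 4.6% of all features. The endothelial median was 0.56 for reprogrammed lung minus adult mammary and -0.05 for reprogrammed mammary minus adult mammary. The 14 lymph node genes had a median of 0.67, with members on both sides. Ccl19, a chemokine of lymph node stroma, lay at -0.07, -0.99 and 0.99 in adult mammary and between 0.46 and 3.86 on the reprogrammed arrays, highest on reprogrammed lung replicate 1 (1.83 ± 0.75, adjusted p = 0.399). Lyve1, the hyaluronan receptor of lymphatic vessels and some macrophages, lay at -0.12, -1.13 and -1.23 in adult mammary and between -4.02 and -1.45 on the reprogrammed arrays (-1.98 ± 0.55, adjusted p = 0.259).

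**Figure D5:**
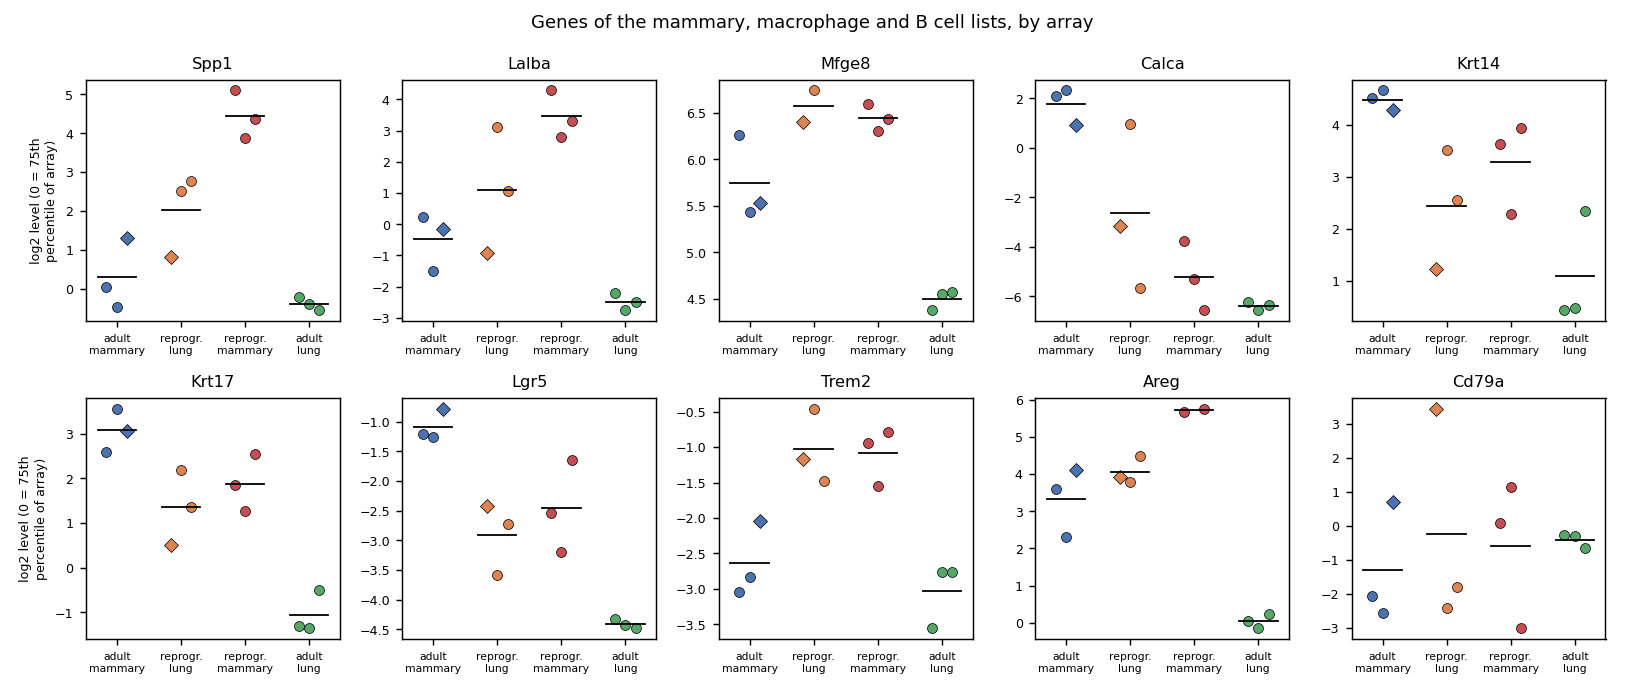
Each panel shows 1 gene that did not pass the threshold, with the log2 level of each array on the vertical axis (0 is the array's 75th percentile) and the 4 groups on the horizontal axis. Points are arrays, diamonds mark the 2 arrays of narrow signal range and lines are group means. Reprogrammed mammary stands highest for Spp1 (3.87 to 5.10), and Cd79a splits the arrays of each compared group.

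Of the programme lists, complement and acute phase had the highest median, 0.63 over 17 genes. At an unadjusted p under 0.05, 7 of these genes were higher and 1 lower, against 6.81% and 4.6% of all features. Of the 17, 1 lay wholly higher and 0 wholly lower, against 2.89% and 2.36% of all features. On the 3 slides that carried both kinds of array the median differences of this list were 1.02, 0.24 and 0.06. Saa3, an acute phase protein, differed by 1.94 ± 0.52. It was well above background on 1 of 3 adult mammary arrays, so the size of this difference is uncertain. Against adult mammary, Saa3 differed by 3.01 in reprogrammed lung and 0.87 in reprogrammed mammary, and by -0.81 on slide 4. The 19 interferon-response genes had a median of 0.50, with 5 higher and 0 lower at an unadjusted p under 0.05, against 6.81% and 4.6%. Of the 19, 1 lay wholly higher and 0 wholly lower, against 2.89% and 2.36%. On the same slides the median differences of this list were 0.37, -0.12 and 0.25. Iigp1, an interferon-inducible GTPase, lay at -0.23, -1.02 and -1.25 in adult mammary, at -0.43, -0.16 and -0.36 in reprogrammed lung and at 0.76, 1.12 and 0.58 in reprogrammed mammary, so that only reprogrammed lung overlapped adult mammary (1.08 ± 0.27, adjusted p = 0.222). The 14 posterior Hox genes, which mark position along the body axis, had a median of 0.52 and 3 without overlap, all higher, against 2.89% of all features. Hoxb7 lay at -0.70, -1.45 and -1.47 in adult mammary and between -0.60 and 0.30 on the reprogrammed arrays (0.95 ± 0.21, adjusted p = 0.188), and adult lung was at -2.98 to -2.51.

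The 23 cell cycle genes lay lowest of all lists, at a median of -0.80, with 1 gene without overlap on the lower side, against 2.36% of all features. At an unadjusted p under 0.05, 4 of the 23 lay lower and 0 higher, against 4.6% and 6.81% of all features. Their array medians were -1.44, 0.50 and 1.04 in adult mammary, -0.46, -1.56 and -1.92 in reprogrammed lung and -0.73, 0.16 and -1.27 in reprogrammed mammary, so the ranges overlap through adult mammary replicate 1. On the 3 shared slides the median differences were -1.92, 0.89 and -2.07. Pcna, the sliding clamp of DNA replication, lay at 2.83, 2.54 and 3.51 in adult mammary and between 1.73 and 2.54 on the reprogrammed arrays, where the 2 ranges meet at 2.54 (-0.86 ± 0.24, adjusted p = 0.259), and it was chosen after its values were seen. The remaining large programmes lay near 0, with 0.08 for 31 ribosomal protein genes, -0.16 for 24 oxidative phosphorylation genes, -0.07 for 21 genes of fatty acid and cholesterol synthesis and 0.11 for 20 immediate-early and dissociation genes. Among 21 Wnt pathway genes, the R-spondins differed in both directions without passing. Rspo1 lay 2.75 lower on the fitted scale (-2.75 ± 0.79) and Rspo3 lay 1.81 ± 0.53 higher. Rspo3 was well above background on 1 of 3 adult mammary arrays (-7.09, -6.36 and -4.08), so the size of its difference is uncertain. On slide 4 it was 0.05. Leaving out reprogrammed lung replicate 3 took Rspo1 to -3.40 (adjusted p = 0.0314), and leaving out adult mammary replicate 4 took Rspo3 to 2.70 (adjusted p = 0.0443). Rspo1 passed under 1 of 24 alternative settings and Rspo3 under 2 of 24.

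Reprogrammed lung and reprogrammed mammary differed for 1 feature (0.00408%), Olfr652, an olfactory receptor gene of chromosome 7. It was well above background on all 3 reprogrammed lung arrays (-3.63, -4.33 and -4.49) and on 0 reprogrammed mammary arrays (-7.17 to -6.67), at least 1.89-fold higher in reprogrammed lung (adjusted p = 0.012, fitted difference 2.77). Adult mammary, at -7.13 to -6.95, was dim as well. Olfr652 entered the test through reprogrammed lung alone, where it was high, and its adjusted p is conditional on that. At an unadjusted p under 0.05, 2346 features differed between the 2 reprogrammed groups. Wnt5a, a noncanonical Wnt ligand chosen after its values were seen, lay at 2.38, 2.35 and 2.70 in reprogrammed mammary and at -1.76, -0.68 and 0.68 in reprogrammed lung (reprogrammed lung minus reprogrammed mammary -3.06, adjusted p = 0.158). Adult mammary, at 0.10, -1.28 and 0.55, overlapped reprogrammed lung. Against adult mammary taken separately, reprogrammed lung gave 3 features higher and reprogrammed mammary 1, with 0 lower in both.

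The 374 olfactory receptor genes, whose best known role is the sense of smell, had a median difference of 0.55, with 37 lying higher without overlap and 0 lower, against 2.89% and 2.36% of all features, and 0 passed. Their median level was -4.30 to -3.65 on the adult mammary arrays, -2.25, -2.96 and -3.63 in reprogrammed lung and -3.74 to -3.41 in reprogrammed mammary. Without both arrays of narrow signal range their median difference was 0.51. A gene was tested if well above background on all 3 arrays of any 1 group. Dim genes could thus enter through a reprogrammed group alone. Of all 810 features at least 2-fold higher, 48 were above background on no adult mammary array. Of the 265 at least 2-fold lower, 1 was above background on no reprogrammed array. The part of the filter in the split of 37 and 0 was not tested. These genes were examined after their values were seen.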

How the data were processed

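RNA from 4 groups of 3 samples was hybridised to 12 Agilent mouse arrays of 1 colour, labelled with Cy3 after linear amplification, per the labels. Per the file headers, the deposited processed signal is an intensity from Agilent Feature Extraction 10.5.1.1, background-subtracted and not scaled between arrays; the submitters' processing notes name version 10.1. The authors' deposited series matrix holds log2 values whose medians lie between 6.78 and 6.79 on all arrays; their normalization is not given in these sources. At the 75th percentile of each array the signal was 293.8 to 608.5, and the median negative control was 18 to 23. The number of arrays limits the precision.

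Outlier spots, 91 to 280 on each array, were dropped and spots of a probe averaged. Values are log2 processed signals after each array was scaled to its 75th percentile. Of 41174 probes, 24844 were named through RefSeq accessions. The brightest probe stood for a symbol, and a feature was tested if well above background on all 3 arrays of a group: 24498 of 32679, of which 14743 have a symbol and 301 lack a value on some array. limma 3.58.1 in R 4.3.3 fitted 4 group means over 12 arrays (8 residual and 2.37 prior degrees of freedom), and the mean of the 2 reprogrammed groups was set against adult mammary, with two-sided Benjamini-Hochberg adjustment over all features. The fit was tested on simulated data. A feature at background on every array of 1 side is given as "at least N-fold" against the mean over those arrays of the lowest level above background on each (or the feature's own level where higher). Promoters are from RefSeq, aligned with Biopython 1.88; both Trim12 genes matched.

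Named genes were, per direction, up to 15 symbols with no overlap of the arrays (called and at least 2-fold first, then by p as values only), the called members of each list or else at most 2 with the widest difference, and the feature that separated the reprogrammed groups. The members and the 43 gene lists (759 genes, 1 without a current symbol) were chosen with earlier results of these data known.

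Alternatives covered background correction, scaling, filters, the arrays and groups in the fit, slide, replicate number, array weights, a variance trend, outlier spots, the mean of probes and each array left out. The planned normexp correction used the median spot signal, because no mean spot signal is in the files used here. Scan time and slide split the arrays in the same way, so no separate scan batch was fitted. Replicate numbers were checked as pairs and not taken as such. Probes without a symbol were tested and otherwise not analysed here.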

Additional observations from a re-analysis of the deposited data

Results flagged for a closer look

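Of 127 named features, 17 had 1 of the 6 reprogrammed arrays far from the other 5 (a gap over 0.625 of the range). By chance about 1 in 20 genes pass this cut when all 6 values come from 1 group. Here they come from 2 groups, and many features were named for a wide difference. The 17 can therefore not be read against that rate. Reprogrammed lung replicate 1 was the odd array for 11 of the 17. It was lowest for Krt8 (3.56, next 5.54), Krt18 (3.66, next 5.57), Epcam (1.58, next 4.33) and Cldn4 (0.0034, next 2.17), genes of epithelial keratins, adhesion and tight junctions. It was also lowest for Atp5a1 (3.48, next 3.87) and Atp5b (5.18, next 5.92), subunits of the mitochondrial ATP synthase, and for the lipid enzymes Sqle (-1.55, next -0.27) and Dgat2 (0.15, next 2.11). It was highest for S100a9 (3.43, next -1.65) and Retnlg (2.75, next -1.79), genes of neutrophils, and for the endothelial factor Sox18 (-0.20, next -0.84). Reprogrammed lung replicate 3 was lowest for Itgb3 (1.48, next 2.38) and Sprr1a (-0.81, next 1.63) and highest for Rspo1 (0.25, next -3.16). Reprogrammed lung replicate 4 was highest for Scgb3a1 (3.70, next 0.51) and lowest for Umod (-7.50, next -4.32). Reprogrammed mammary replicate 2 was lowest for Rpl21 (-3.18, next -2.66).

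Olfr652 differed between the reprogrammed groups by 2.77 (limma, adjusted p = 0.012), with 3 of 3 reprogrammed lung arrays above all reprogrammed mammary arrays. It entered the test through the reprogrammed lung arrays alone.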

How the results depend on the processing

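The 5 features higher and 0 lower became, in that order, 0 and 0 with normexp background correction, 1 and 1 with the authors' log2 values, 4 and 3 with quantile normalization, 8 and 1 with median scaling, 3 and 0 with probes above background on all arrays, 1 and 0 with no filter, 3 and 0 with the 9 arrays as 2 groups, 1 and 0 with the 9 arrays as 3 groups, 0 and 0 with slide as a fixed block, 17 and 8 with array weights, and 27 and 14 without both arrays of narrow signal range. With the replicate block they were 3 and 0. Deviations from the group mean correlated at -0.53 to 0.33 between same-numbered arrays and at up to 0.64 between differently numbered ones. These mixed values cannot tell whether the numbers pair the arrays. Slide as a random block and outlier spots kept gave 5 and 0, a variance trend 4 and 0, and the mean of probes 6 and 0. Leaving out 1 array gave 1 to 93 higher and 0 to 11 lower. The cause of these changes was not tested. Of refits of single named features, 3033 kept their direction and side of the threshold, 55 no longer passed, 45 newly passed and 7 reversed: with slide as a fixed block Hba-a1 (-0.0096), Sftpd (0.051) and Nkg7 (-0.79), with array weights Csn2 (0.45), without adult mammary replicate 2 Csn2 (0.27, with -2.57 to 0.27 over all arrays left out singly), without reprogrammed lung replicate 4 Scgb1a1 (-0.0004073, -0.0004073 to 0.74), and without reprogrammed lung replicate 1 Cd79a (-0.036, -0.036 to 1.89). Of refits of list medians, 1069 moved by less than the spread between arrays and 6 by more. The median of all features stayed between -0.01 and 0.10. Scan date was not run as a block, since it is the same as slide.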
